A study of Homo sapiens with 6 samples.

Results

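The genes described here encode the proteins of tight junctions, desmosomes and gap junctions. They were chosen by symbol: all claudins (CLDN), desmocollins and desmogleins (DSC, DSG), plakophilins (PKP1 to PKP4), zonula occludens proteins (TJP) and connexins of the GJA and GJB families, with OCLN, MARVELD2, MARVELD3, F11R, CGN, DSP, JUP, PPL, EVPL and EPCAM. The rule found 62 of the 38557 gene symbols in the deposited tables. Of these, 32 belong to tight junctions, 15 to desmosomes and 14 to gap junctions, and EPCAM was kept apart. The rule used no measured value.

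Tight junctions close the space between neighbouring epithelial cells: claudins, occludin and related membrane proteins form the seal, and the plaque proteins TJP1, TJP3 and CGN, among others, tie it to the actin cytoskeleton. Desmosomes are rivets in which desmosomal cadherins bind the next cell and the armadillo proteins (JUP and the plakophilins) and plakins (DSP, PPL, EVPL) link them to keratin filaments. Gap junctions are channels of connexins that pass ions and small molecules from cell to cell. In the bladder these junctions help the urothelium hold back urine.

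RNA was profiled in T-24, an established line from a human urinary bladder cancer that the labels call epithelial and adherent. In 3 libraries the cells had been treated with 1 µM CCT068127, which is known to block the kinases CDK2 and CDK9, for 48 h. In the other 3 they had been treated with the vehicle DMSO for the same time, and the labels give their genotype as WT. All 6 libraries are poly(A) RNA of this single line, described as independent biological replicates, and no allele or further agent is named.

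Library totals were 1966742 to 5557546 counts in the CCT068127 group and 5955296 to 411097626 in the DMSO group, in which replicates 1 and 2 were far deeper than the rest. Of the 6 epithelial markers, KRT8, KRT18, KRT7 and KRT19 carried nearly all of a summed 5281 to 6725 TPM (a measure of transcript level that accounts for gene length) in CCT068127 libraries and 3677 to 4874 TPM in DMSO libraries. CDH1, the epithelial cadherin, reached at most 0.08 TPM in CCT068127 libraries and 0.14 TPM in DMSO libraries. The 8 urothelial markers summed to 58.4 to 64.7 TPM in CCT068127 libraries and 215 to 247 TPM in DMSO libraries, and GATA3 and PPARG made up most of both sums. Leukocyte markers summed to 43.6 to 45.3 TPM in CCT068127 libraries and 9.46 to 15.2 TPM in DMSO libraries, mainly from CD68 and CD14, while PTPRC and CD3E were near 0. These 2 went opposite ways in edgeR: CD68 was higher in CCT068127 libraries (log2 fold change 3.14, adjusted p 5e-07) and CD14 lower (-0.94, adjusted p 0.0461). Endothelial markers summed to at most 5.09 TPM in CCT068127 libraries and 5.67 TPM in DMSO libraries, and fibroblast markers to at most 0.65 TPM in CCT068127 libraries and 1.07 TPM in DMSO libraries, with KDR, DCN and LUM at 0 in every library. The part of these markers in the results that follow was not tested.

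After treatment most of the expressed junction genes were lower, with a few membrane proteins of the tight junction going the other way. Of the 62 genes, 28 had enough counts (about 10 in at least 3 libraries) to be tested, among 13597 tested genes in all. CCT068127-treated cells had 15 of the 28 lower and 6 higher than DMSO cells at an adjusted p under 0.05 in edgeR's quasi-likelihood test, and 7 had no call. Among all tested genes 32.8% were called lower and 31.9% higher. Among 15 tight junction genes 8 were lower and 5 higher, and among 10 desmosome genes 6 were lower and 1 was higher. The 5 of 15 higher is close to the share of all genes, and the difference of the other counts from that background was not tested. A change of at least 2-fold was called lower for 7 of the genes and higher for 4, against 12.9% lower and 15.5% higher of all tested genes. In 16 of the 28 every DMSO library was above every CCT068127 library (36% of all tested genes), and in 6 the reverse held (33.3%). The median log2 fold change was -0.45 over the 28 genes and -0.050 over all tested genes.

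These counts cannot stand for the whole set of 62. CLDN2, CLDN4, CLDN15, CLDN23 and TJP3 passed the low-count filter in all 3 DMSO libraries and not in all 3 CCT068127 libraries, and CLDN14 and MARVELD3 did so the other way round. All of these named genes but CLDN15 were called in the direction of the group through which they passed, so the counts of calls depend in part on the filter. In bulk RNA, fewer cells of a kind and less RNA per cell cannot be told apart. Fold changes are also relative to the zero line of the scaling. With TMM scaling the median of all genes was -0.050, with plain library totals it was -0.36 and on the log2(TPM + 1) scale with a filter it was -0.46, and the calls over all genes were 4333 higher and 4460 lower with TMM against 3006 higher and 6567 lower with library totals. A junction gene called higher is therefore given with its value under other scalings where these change the call.

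**Figure D1:**
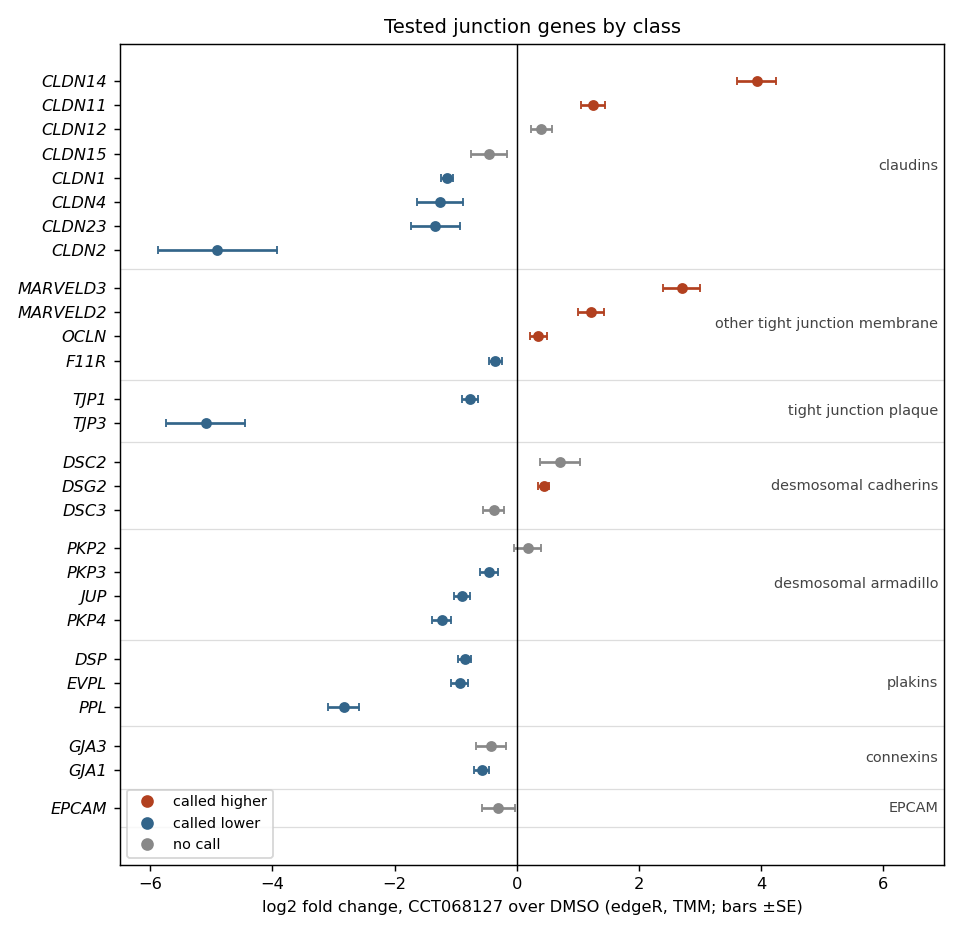
The log2 fold change (CCT068127 over DMSO, x axis, bars ± SE) of 27 of the 28 tested junction genes, grouped by class down the page, with genes called higher in red, called lower in blue and without a call in grey. All 3 plakins lie left of 0, and the 3 points farthest right are CLDN14, MARVELD3 and CLDN11.

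Claudins, the sealing and pore-forming membrane proteins of the tight junction, changed in both directions. Of 24 claudins 8 were tested, 4 fell and 2 rose, against 32.8% called lower and 31.9% called higher of all tested genes. The difference was not tested. CLDN1, a barrier-forming claudin of many epithelia, had 156, 163 and 157 CPM (counts relative to the TMM-scaled library total) in CCT068127 libraries and 368, 338 and 344 CPM in DMSO libraries. Its CCT068127 libraries lay within a narrow band at less than every DMSO library, a log2 fold change of -1.14 ± 0.09 (SE, adjusted p 1.84e-06 in edgeR). CLDN11, the claudin known from myelin and from the barrier of the testis, had 324, 248 and 259 CPM in CCT068127 libraries and 157, 98.4 and 92.6 CPM in DMSO libraries. The groups did not overlap, and replicate 1 was the highest library of each. CLDN11 rose by 1.25 ± 0.20 on the log2 scale (adjusted p 0.000376), and by 0.79 on the log2(TPM + 1) scale (adjusted p 0.00998 in limma).

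CLDN14, a claudin known from the inner ear and kidney, showed the largest rise among the 28 genes in log2 terms. It had 6.52, 3.43 and 7.57 CPM in CCT068127 libraries and 0.467, 0.381 and 0.149 CPM in DMSO libraries. Its log2 fold change was 3.92 ± 0.32 (adjusted p 2.16e-06), and the pooled counts of 70 in CCT068127 and 366 in the much deeper DMSO libraries gave a 15.3-fold ratio (95% counting interval 11.7 to 19.8). CLDN2, which forms a pore for cations and water, went the other way: it had 0, 0 and 0.237 CPM in CCT068127 libraries and 1.74, 3.68 and 3.14 CPM in DMSO libraries. The CCT068127 value is a single count in 3 libraries, and the pooled ratio was 30.0-fold lower with a counting interval of 5.39 to 1187 (adjusted p 0.0012). CLDN4, another barrier claudin, had 1.83, 1.14 and 0.710 CPM in CCT068127 libraries and 3.19, 3.24 and 2.24 CPM in DMSO libraries. CLDN23 had 2.24, 0.571 and 0.710 CPM in CCT068127 libraries and 3.13, 3.76 and 3.29 CPM in DMSO libraries. Both fell, by 1.25 ± 0.38 (adjusted p 0.0131) for CLDN4 and by 1.33 ± 0.40 (adjusted p 0.0129) for CLDN23 on the log2 scale. Both rest on 14 or 15 CCT068127 counts, and without CCT068127 replicate 3 their adjusted p was 0.0808 for CLDN4 and 0.0834 for CLDN23. CLDN23 was also -2.38 without CCT068127 replicate 1, its highest treated library.

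CLDN12 and CLDN15 had no call with TMM scaling. CLDN12, which lacks the usual tail for binding the plaque proteins, had a log2 fold change of 0.40 ± 0.17 (adjusted p 0.0615) that was -0.061 at its lowest setting, on the log2(TPM + 0.1) scale, and 0.59 at its highest. It was called higher under 3 of 17 other settings, which were DESeq2's size factors, deep libraries thinned and without CCT068127 replicate 1. Its exons overlap those of CDK14 and GTPBP10 on the same strand, so its counts may hold their reads. CLDN15, a cation pore of the gut, had -0.46 ± 0.30 (adjusted p 0.202), and was called lower with library totals (-0.76, adjusted p 0.0365).

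The opposite moves of CLDN1 and CLDN11 turned the order of the claudins over. On the TPM scale, which is per length and lets genes be compared, CLDN1 was 27.8 ± 2.52% of the summed claudin level in CCT068127 libraries and 64.4 ± 4.10% in DMSO libraries (mean ± SD, n = 3). CLDN11 was 60.4 ± 4.22% of it in CCT068127 libraries and 26.5 ± 5.03% in DMSO libraries. CLDN11 was thus the most abundant claudin in each of the 3 CCT068127 libraries and CLDN1 in each of the 3 DMSO libraries. CLDN1 had 67.0, 72.4 and 69.9 TPM in CCT068127 libraries against 228, 205 and 214 TPM in DMSO libraries, and CLDN11 had 175, 139 and 145 TPM against 123, 75.6 and 72.5 TPM. The summed claudin level was 252 ± 14.0 TPM in CCT068127 libraries and 336 ± 38.7 TPM in DMSO libraries. Shares within a library do not depend on how libraries are scaled against each other, and the same shares in CPM were 32.8 ± 2.59% in CCT068127 libraries and 69.5 ± 3.75% in DMSO libraries for CLDN1.

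The stretches before the transcription starts of CLDN1 and CLDN11, which turn this order, and of CLDN14, the claudin with the largest rise, outside any annotated exon, are shown because their sequences can be set against the factors described further on (RefSeq, GRCh38.p14, 5′ to 3′ on the gene's strand). CLDN1 lies at chr3:190305701-190322475 on the minus strand (GRCh38, GENCODE release 29). Its stretch at chr3:190322476-190322540 is the whole 65-base gap to the GENCODE start of CLDN16 on the other strand. CLDN11 lies at chr3:170418865-170454733 on the plus strand, with its stretch at chr3:170418618-170418864. CLDN14 lies at chr21:36460621-36576569 on the minus strand, with its stretch at chr21:36576570-36576819. None of the 3 holds the letters CAGGTG on either strand, so none is in capitals.
CLDN1: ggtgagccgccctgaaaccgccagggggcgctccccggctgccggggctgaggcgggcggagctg
CLDN11: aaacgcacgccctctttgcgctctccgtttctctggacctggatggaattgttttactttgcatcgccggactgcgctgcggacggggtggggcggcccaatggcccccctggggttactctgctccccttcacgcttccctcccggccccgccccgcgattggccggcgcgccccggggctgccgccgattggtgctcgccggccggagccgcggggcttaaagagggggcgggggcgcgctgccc
CLDN14: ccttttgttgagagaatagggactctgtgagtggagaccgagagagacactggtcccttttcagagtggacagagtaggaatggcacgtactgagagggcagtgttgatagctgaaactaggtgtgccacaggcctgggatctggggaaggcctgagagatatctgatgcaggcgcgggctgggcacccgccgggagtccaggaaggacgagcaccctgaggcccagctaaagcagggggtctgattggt

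**Figure D2:**
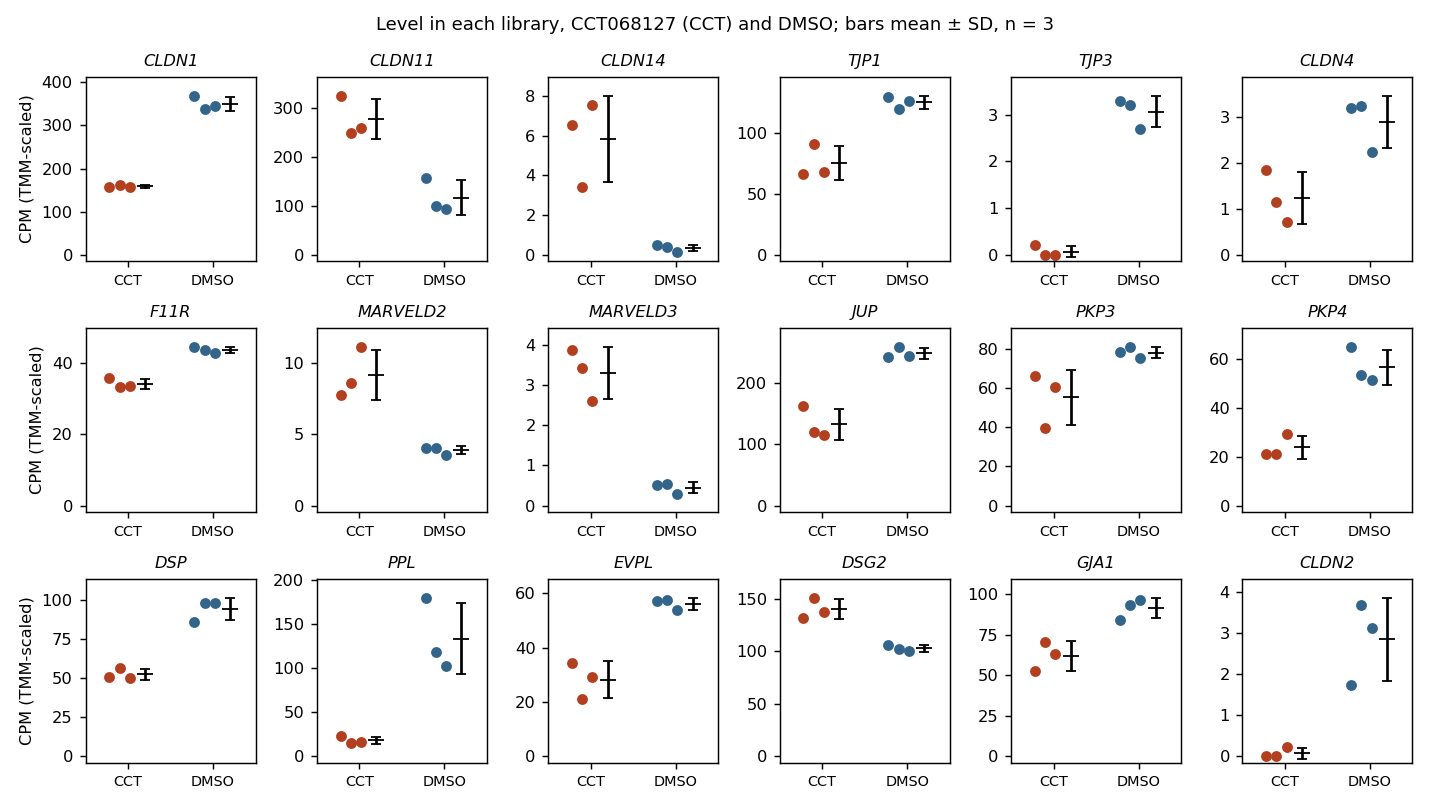
The level (CPM, TMM-scaled, y axis) of 18 junction genes in each library, CCT068127 left in red and DMSO right in blue, with the mean ± SD (n = 3) beside each group. CLDN11, CLDN14, MARVELD2, MARVELD3 and DSG2 have every CCT068127 library above every DMSO library, and the other 13 genes drawn have every CCT068127 library below.

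Of the other 4 membrane proteins of the tight junction 3 were called higher and 1 lower, and 1 of the higher calls, that of OCLN, rests on the scaling. The shares of all tested genes were 31.9% higher and 32.8% lower, and the difference was not tested. MARVELD2 (tricellulin), which seals the corners where cells meet in threes, had 7.74, 8.57 and 11.1 CPM in CCT068127 libraries and 4.01, 4.07 and 3.58 CPM in DMSO libraries. MARVELD3, a relative of occludin, had 3.87, 3.43 and 2.60 CPM in CCT068127 libraries and 0.509, 0.532 and 0.299 CPM in DMSO libraries. Neither pair of groups overlapped, and the log2 fold changes were 1.22 ± 0.21 (adjusted p 0.000483) for MARVELD2 and 2.70 ± 0.30 (adjusted p 2.25e-05) for MARVELD3. On the log2(TPM + 1) scale both were smaller, at 0.56 for MARVELD2 and 1.13 for MARVELD3. MARVELD3 rests on 36 CCT068127 counts, and an exon of it overlaps PHLPP2 on the other strand. Whether the libraries kept strand was not stated, so the reads of such pairs cannot be told apart.

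OCLN (occludin) was called higher at 0.35 ± 0.14 (adjusted p 0.044), but this call held under only 2 of 17 other settings, and on the log2(TPM + 1) scale its direction was reversed, at -0.33. OCLN had 14.9, 15.4 and 15.9 CPM in CCT068127 libraries and 12.6, 11.4 and 12.1 CPM in DMSO libraries, yet 3.55, 4.68 and 4.19 TPM in CCT068127 libraries and 6.31, 5.27 and 4.86 TPM in DMSO libraries. The TMM-scaled CPM and the deposited TPM thus placed the groups in opposite order, and with plain library totals the counts gave a log2 fold change of 0.04 (adjusted p 0.791). F11R, the junctional adhesion molecule JAM-A, fell by 0.35 ± 0.10 on the log2 scale (adjusted p 0.0125), and by 0.78 on the log2(TPM + 1) scale. It was 11.1 ± 0.17 TPM in CCT068127 libraries and 19.8 ± 0.40 TPM in DMSO libraries. F11R was the most abundant of these 4 genes at 53.8 ± 2.88% of their summed TPM in CCT068127 libraries and 71.9 ± 2.20% in DMSO libraries. MARVELD2 took 15.8 ± 3.04% in CCT068127 libraries against 6.78 ± 0.26% in DMSO libraries, and MARVELD3 took 10.3 ± 1.96% against 1.54 ± 0.61%.

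MARVELD2 and OCLN are neighbours on chromosome 5, both on the plus strand, 47961 bases apart. MARVELD2 lies at chr5:69415065-69444330, and the stretch before it at chr5:69414866-69415064 is shown as that of a gene that rose. It holds no CAGGTG, whereas both listed start windows of OCLN hold one.
MARVELD2: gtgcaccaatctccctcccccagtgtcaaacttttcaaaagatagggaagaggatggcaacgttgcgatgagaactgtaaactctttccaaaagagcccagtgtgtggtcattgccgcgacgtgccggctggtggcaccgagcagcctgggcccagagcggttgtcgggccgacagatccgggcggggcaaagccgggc

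In the plaque of the tight junction TJP1 and TJP3 were both lower. TJP1 (ZO-1), the scaffold that binds claudins and occludin to actin, had 66.2, 91.4 and 68.2 CPM in CCT068127 libraries and 130, 120 and 127 CPM in DMSO libraries. The groups did not overlap, and TJP1 fell by 0.76 ± 0.13 on the log2 scale (adjusted p 0.000368). TJP3 (ZO-3) had 0.204, 0 and 0 CPM in CCT068127 libraries and 3.30, 3.21 and 2.69 CPM in DMSO libraries. That is 1 count in the CCT068127 libraries, and the pooled ratio was 35.4-fold lower with a counting interval of 6.35 to 1399 (adjusted p 5.61e-05). CGN (cingulin), another plaque gene, was too low to test, with 15 counts in CCT068127 and 1004 in DMSO libraries and a pooled ratio of 1.19 (counting interval 0.666 to 1.98).

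TJP1 lies at chr15:29699367-29968865 on the minus strand. The stretch at chr15:29969050-29969299 before a RefSeq start of TJP1 holds 1 CAGGTG, in capitals.
TJP1: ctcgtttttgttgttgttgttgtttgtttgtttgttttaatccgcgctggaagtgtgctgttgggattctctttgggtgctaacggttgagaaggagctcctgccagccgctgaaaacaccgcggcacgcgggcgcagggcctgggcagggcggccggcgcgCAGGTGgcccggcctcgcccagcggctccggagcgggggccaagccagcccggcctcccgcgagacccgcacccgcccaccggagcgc

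The desmosomal cadherins, which bind the neighbouring cell, had 1 gene called higher and none called lower among 3 tested by edgeR, and none was lower at an unadjusted p under 0.05 or in DESeq2. Over all tested genes edgeR called 31.9% higher and 32.8% lower, and the difference was not tested. DSG2, the desmoglein of simple epithelia, had 132, 151 and 138 CPM in CCT068127 libraries and 106, 102 and 100 CPM in DMSO libraries. DSG2 was called higher at 0.44 ± 0.10 (adjusted p 0.00228), a direction that scaling decides: it was 0.13 with library totals (adjusted p 0.252) and -0.041 on the log2(TPM + 1) scale (adjusted p 0.709). In TPM its groups overlapped, at 35.4, 40.2 and 36.5 in CCT068127 libraries and 40.3, 37.8 and 37.3 in DMSO libraries. DSG2 made up 89.1 ± 2.27% of the summed desmosomal cadherin TPM in CCT068127 libraries and 85.9 ± 0.44% in DMSO libraries. DSC3 had a log2 fold change of -0.37 ± 0.17 (adjusted p 0.0777) and DSC2 of 0.70 ± 0.33 (adjusted p 0.0826). DSC3 was called lower under 6 of 17 other settings, among them library totals and all 3 on TPM. DSC2 was called higher without CCT068127 replicate 1, at 1.03, and was -0.085 on the unfiltered log2(TPM + 1) scale.

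DSG2 lies at chr18:31498043-31549008, the last of a row of 4 desmoglein genes on chromosome 18, of which DSG1 had 0 counts in CCT068127 libraries and 6 in DMSO libraries and DSG4 had none in any library. The stretch before it at chr18:31497927-31498042 holds 1 CAGGTG, in capitals. DSG2-AS1 overlaps it on the other strand.
DSG2: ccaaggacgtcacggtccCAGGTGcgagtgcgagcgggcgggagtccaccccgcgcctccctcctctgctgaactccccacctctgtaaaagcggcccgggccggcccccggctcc

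The armadillo proteins, which couple the cadherin tails to the plakins, had 3 of 4 tested genes lower. The share of all tested genes called lower was 32.8%, and the difference was not tested. JUP (plakoglobin), shared by desmosomes and adherens junctions, had 162, 120 and 114 CPM in CCT068127 libraries and 242, 258 and 243 CPM in DMSO libraries. It fell by 0.90 ± 0.13 on the log2 scale (adjusted p 0.000154). PKP4, a plakophilin relative that also sits in adherens junctions, had 21.2, 21.1 and 29.4 CPM in CCT068127 libraries and 64.9, 53.6 and 51.2 CPM in DMSO libraries. It fell by 1.23 ± 0.16 (adjusted p 5.85e-05), and PKP4-AS1 overlaps it on the other strand. PKP3, the plakophilin found in most desmosomes of epithelia, had 66.2, 39.4 and 60.4 CPM in CCT068127 libraries and 78.4, 80.7 and 75.1 CPM in DMSO libraries. PKP3 fell by 0.45 ± 0.15 (adjusted p 0.0204), with an adjusted p of 0.0529 without CCT068127 replicate 3.

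PKP2, the plakophilin of simple epithelia and heart, stood apart from the others. It had 38.5, 32.0 and 31.2 CPM in CCT068127 libraries and 40.5, 24.5 and 24.0 CPM in DMSO libraries, and the groups overlapped through DMSO replicate 1 (log2 fold change 0.18 ± 0.22, adjusted p 0.494). Without that library it was 0.47 with an adjusted p of 0.0109, and on the log2(TPM + 0.1) scale with all libraries it was -0.26. JUP was the most abundant of the class, at 72.5, 56.7 and 53.2 TPM in CCT068127 libraries and 157, 163 and 157 TPM in DMSO libraries. The summed armadillo level was 111 ± 15.2 TPM in CCT068127 libraries and 261 ± 9.12 TPM in DMSO libraries. PKP1, the plakophilin of stratified skin, had no count in CCT068127 libraries and 39 in DMSO libraries.

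All 3 plakins, the linkers to keratin filaments, fell, against 32.8% called lower of all tested genes. With 3 genes the difference was not tested. PPL (periplakin) had the largest fall of the well-counted junction genes, with 23.0, 14.9 and 16.6 CPM in CCT068127 libraries and 179, 119 and 102 CPM in DMSO libraries. The groups lay far apart, and DMSO replicate 1 was the highest library. PPL fell by 2.84 ± 0.25 on the log2 scale, or 7.14-fold (adjusted p 6.74e-06). EVPL (envoplakin), which pairs with periplakin in the cornified envelope of skin, had 34.4, 21.1 and 29.1 CPM in CCT068127 libraries and 57.0, 57.6 and 53.6 CPM in DMSO libraries. DSP (desmoplakin), the obligate plakin of the desmosome, had 51.0, 56.6 and 50.2 CPM in CCT068127 libraries and 86.0, 98.3 and 98.4 CPM in DMSO libraries. The log2 fold changes were -0.94 ± 0.14 (adjusted p 0.000211) for EVPL and -0.85 ± 0.11 (adjusted p 5.24e-05) for DSP.

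The plakins' summed level was 19.8 ± 1.66 TPM in CCT068127 libraries and 84.0 ± 13.0 TPM in DMSO libraries. PPL was 21.9 ± 2.84% of that sum in CCT068127 libraries and 52.6 ± 7.65% in DMSO libraries. DSP was 45.6 ± 7.05% of it in CCT068127 libraries and 25.5 ± 4.97% in DMSO libraries. Periplakin was thus the most abundant plakin in each DMSO library and the least abundant in each CCT068127 library. DSP lies at chr6:7541575-7586717 on the plus strand, and the stretch before it at chr6:7541421-7541574 holds 1 CAGGTG, in capitals.
DSP: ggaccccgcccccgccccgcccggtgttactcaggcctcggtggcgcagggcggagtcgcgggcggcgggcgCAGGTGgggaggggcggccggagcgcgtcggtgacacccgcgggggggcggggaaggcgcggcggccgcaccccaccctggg

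**Figure D3:**
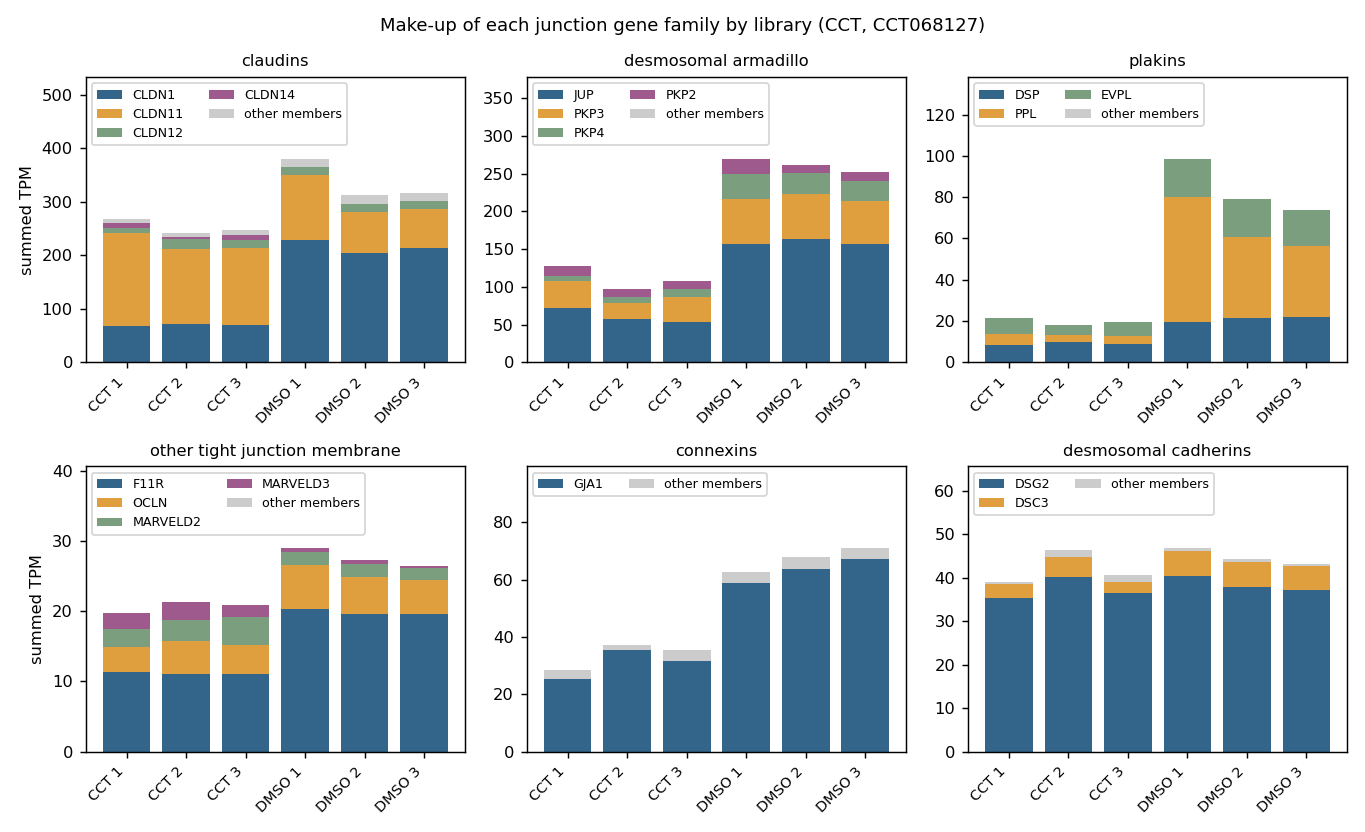
The summed TPM of 6 junction gene families (y axes) in each library, the 3 CCT068127 libraries left of the 3 DMSO libraries, with the share of each leading gene in colour and the remaining members in grey. CLDN11 (orange) is the largest claudin in the CCT068127 libraries and CLDN1 (blue) in the DMSO libraries, and PPL (orange) is the smallest plakin in the CCT068127 libraries and the largest in the DMSO libraries, while the desmosomal cadherin sums overlap between the groups.

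Among the connexins of the GJA and GJB families only GJA1 was abundant. GJC1, outside these families, reached a similar level after treatment and is given further on. GJA1, the most widely expressed connexin, had 52.6, 70.8 and 63.0 CPM in CCT068127 libraries and 84.5, 93.6 and 96.5 CPM in DMSO libraries. The groups did not overlap, and GJA1 fell by 0.58 ± 0.12 on the log2 scale (adjusted p 0.00181). It was 90.8 ± 3.57% of the summed TPM of GJA and GJB connexins in CCT068127 libraries and 94.2 ± 0.38% in DMSO libraries. That sum, which leaves out GJC1, was 33.7 ± 4.58 TPM in CCT068127 libraries and 67.1 ± 4.29 TPM in DMSO libraries. GJA3, a connexin known from the lens, had -0.42 ± 0.25 (adjusted p 0.155). With library totals, without a filter and on all 3 TPM settings GJA3 was called lower, and it was -1.07 on the log2(TPM + 0.1) scale. No connexin of these families was called higher by edgeR, with 0 at an unadjusted p under 0.05. DESeq2, which tested genes below the filter too, called 3 higher, GJB5 among them.

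EPCAM, the epithelial adhesion molecule that binds claudins, had 2.83, 4.11 and 2.67 TPM in CCT068127 libraries and 5.71, 5.14 and 4.29 TPM in DMSO libraries. In CPM its groups overlapped, and its log2 fold change was -0.30 ± 0.27 (adjusted p 0.34). On the log2(TPM + 1) and log2(TPM + 0.1) scales with a filter it was called lower, with -0.66 at the lowest.

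The 34 genes below the filter were 17 of the tight junction, 5 of the desmosome and 12 connexins. Each averaged at most 1.53 TPM in CCT068127 libraries and 1.86 TPM in DMSO libraries. The pooled DMSO counts come almost wholly from the 2 deep libraries, and the intervals that follow cover counting error only. DSG3, the desmoglein of the deep layers of stratified epithelia, had 3, 6 and 14 counts in CCT068127 libraries and 20, 27 and 0 in DMSO libraries, a pooled ratio of 39.1 (counting interval 22.7 to 65.7). CLDN19 had 11, 1 and 4 counts in CCT068127 libraries and 39, 28 and 1 in DMSO libraries, a ratio of 18.8 (10.2 to 32.8). CLDN16 had 10, 3 and 9 counts in CCT068127 libraries and 225, 207 and 1 in DMSO libraries, a ratio of 4.06 (2.52 to 6.23). CLDN16 and CLDN19 are the pair that carries magnesium back from the urine in the kidney.

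Other low genes also had pooled ratios above 1. The pooled ratio was 14.5 for GJB5 (4.98 to 35.1; 6 CCT068127 counts) and 10.1 for CLDN6 (4.86 to 19.0; 11 counts). GJB5 is a connexin known from skin, and an exon of CLDN6 overlaps TNFRSF12A on the other strand. CLDN7 had 5 counts in CCT068127 and 1096 in DMSO libraries, a 2.74-fold lower ratio (1.17 to 8.47), and GJB7 had 1 in CCT068127 and 630 in DMSO libraries, a 7.88-fold lower ratio (1.41 to 312). CLDN7 overlaps ELP5 and GJB7 overlaps SMIM8 on the other strand. For GJB2, CLDN3, CLDN5, CLDN9, GJA4 and GJA5, with 1 or 2 CCT068127 counts each, the counting interval of the ratio included equal levels, and for DSC1, with 2 counts in CCT068127 and 10 in DMSO libraries, the ratio was 16.0 (1.70 to 75.0).

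No count was seen in the CCT068127 libraries for 17 genes, and 5 of them (CLDN8, CLDN17, CLDN22, DSG4 and GJA10) had none in any library. Among the others, PKP1, CLDN10, CLDN18, CLDN20, CLDN34, GJA9 and GJB6 had 10 or more DMSO counts, and DSG1, GJB1, CLDN24 and CLDN25 had fewer. The DMSO levels of these named genes were under the 0.275 CPM that 0 counts allow in the pooled CCT068127 libraries (3 counts), so the depth shows no difference for them.

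Where junction genes lie side by side, the neighbours did not all move together. CLDN1 fell while CLDN16, too low to test, had the pooled ratio of 4.06 given above. By the GENCODE bounds CLDN16 is divergent from CLDN1 across 65 bases. The RefSeq start windows of CLDN16 lie elsewhere, at chr3:190290111-190290360 and chr3:190387913-190388162. In the desmocollin row on chromosome 18 (chr18:30990008-31162856) neither DSC3 nor DSC2 was called. In the desmoglein row (chr18:31318089-31549008) DSG3 and DSG2 are adjacent, 19340 bases apart.

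Of 28 tight junction and polarity partners 22 were tested, 8 were called lower and 4 higher, with a median log2 fold change of -0.16. Among all tested genes 32.8% were called lower and 31.9% higher. With library totals 11 of the 22 were called lower and 1 higher, against 6567 lower and 3006 higher of all 13597 genes. On the log2(TPM + 1) scale, where 21 were tested, 12 were called lower and 0 higher. There 7472 of all 14394 tested genes were called lower and 2474 higher. The counts called lower are close to the shares of all genes, and the difference was not tested. The polarity genes PRKCZ (-1.17 ± 0.14, adjusted p 2.82e-05) and PARD3 (-0.88 ± 0.11, adjusted p 3.8e-05) fell. AMOTL2, an angiomotin that binds polarity complexes, rose by 0.75 ± 0.11 (adjusted p 0.000178), and it was the 1 gene of the list still called higher with library totals, though on the log2(TPM + 1) scale its 0.25 missed the threshold (adjusted p 0.0787).

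Of 12 adherens junction genes 10 were tested, 4 were called higher and 3 lower. With library totals 2 were called higher and 5 lower, and on the log2(TPM + 1) scale 1, NECTIN4, was called higher and 5 lower. With TMM 31.9% of all tested genes were called higher and 32.8% lower. The counts over all genes with the other scalings are given above, and the difference from them was not tested. NECTIN4, a nectin known as a surface target in bladder cancer, had 2.45, 6.28 and 6.63 CPM in CCT068127 libraries and 0.0605, 0.0842 and 0.299 CPM in DMSO libraries. It rose by 5.97 ± 0.48 on the log2 scale (adjusted p 1.8e-06), by 1.61 on the log2(TPM + 1) scale (adjusted p 0.000948), by 3.71 on the log2(TPM + 0.1) scale and by 4.80 with deep libraries thinned. It passed the low-count filter in 3 CCT068127 libraries and 0 DMSO libraries, with counts of 12, 11 and 28 in CCT068127 libraries and 25, 38 and 2 in DMSO libraries. CDH2 (N-cadherin) was called higher at 0.27 (adjusted p 0.042) but was -0.042 with library totals and -0.17 on the log2(TPM + 1) scale. The catenin CTNNA1 was called higher at 0.63 ± 0.10 (adjusted p 0.000207), but had 0.14 and no call on the log2(TPM + 1) scale. The actin linker VCL was called higher at 0.29 ± 0.10 (adjusted p 0.0328) but was -0.028 with library totals and -0.21 on the log2(TPM + 1) scale. AFDN, which ties nectins to actin and binds TJP1, fell by 0.98 ± 0.11 (adjusted p 3.14e-05).

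Among the connexins and pannexins outside the GJA and GJB families, 5 of 10 were tested, 3 were called higher and 2 lower. Of all tested genes 31.9% were called higher and 32.8% lower, and the difference was not tested. PANX1, a channel that releases ATP, had 127, 129 and 127 CPM in CCT068127 libraries and 60.6, 67.9 and 62.4 CPM in DMSO libraries and rose by 1.00 ± 0.10 (adjusted p 6.56e-06). GJC1 rose by 0.71 ± 0.14 (adjusted p 0.00111). GJD3 fell to 3.06, 1.71 and 2.37 CPM in CCT068127 libraries, against 16.2, 22.4 and 19.3 CPM in DMSO libraries (log2 fold change -2.91 ± 0.25, adjusted p 3.08e-06). On the TPM scale GJC1 had 31.3, 35.1 and 32.7 in CCT068127 libraries and 30.4, 20.9 and 18.6 in DMSO libraries. GJA1 had 25.3, 35.3 and 31.5 TPM in CCT068127 libraries and 58.7, 63.8 and 67.2 TPM in DMSO libraries, so the 2 connexins were at overlapping levels after treatment and far apart in DMSO.

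Of 14 transcription factors known to act on epithelial junction genes, 6 were tested and all 6 were called, 3 in each direction. Among all 13597 tested genes 64.7% were called, 31.9% higher and 32.8% lower, and the difference was not tested. With library totals, and also on the log2(TPM + 1) scale, 1 of the 6 was called higher and 3 lower. Over all 13597 genes library totals gave 3006 higher and 6567 lower. The log2(TPM + 1) scale with a filter gave 2474 higher and 7472 lower of 14394, so the 3 lower are close to both backgrounds. SNAI1 (Snail), known as a repressor of CDH1 and claudin genes, had 20.2, 26.3 and 28.4 CPM in CCT068127 libraries and 1.01, 1.08 and 0.597 CPM in DMSO libraries. It rose by 4.61 ± 0.22 on the log2 scale (adjusted p 8.66e-08). SNAI1 passed the low-count filter in 3 CCT068127 libraries and 0 DMSO libraries. Its relative SNAI2 (Slug) was called higher at 0.88 ± 0.26 (adjusted p 0.0124) and missed the threshold with library totals (0.57, adjusted p 0.0743). KLF5 was called higher at 0.34 ± 0.12 (adjusted p 0.0326) but was -0.15 on the log2(TPM + 1) scale. The repressors ZEB2 and ZEB1, known from the same targets as Snail, fell by 1.13 ± 0.16 (adjusted p 0.000124) and 0.49 ± 0.18 (adjusted p 0.0322). ELF3, a factor of differentiated epithelia, had 4.89, 5.71 and 6.86 CPM in CCT068127 libraries and 25.6, 48.2 and 43.2 CPM in DMSO libraries and fell by 2.73 ± 0.32 (adjusted p 5.01e-05). GRHL2, an activator of claudin and desmosome genes in epithelia, had 0 TPM in all 3 CCT068127 libraries and at most 0.01 TPM in DMSO libraries.

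Snail, Slug and the ZEB proteins are known to bind E-boxes with the letters CAGGTG, and these were searched on both strands in RefSeq windows of 250 bases (GRCh38.p14) before each transcription start. Windows were listed for 41 of the 62 genes, 58 windows in all, and 14 of them held the motif, against 17.5% of 35116 windows of all genes. The difference was not tested. Junction gene windows on chromosome 8, where CLDN23 lies, were left out, a limit not set on the windows of all genes. Of the windows of genes called higher 4 of 9 held the motif, and of genes called lower 4 of 16. Of the windows of genes without a call 2 of 6 held it, and of genes not tested 4 of 27. A gene can have several windows. Counted by gene, 3 of 5 called higher and 4 of 9 called lower held it in at least 1 window. The 17.5% is a share of windows and no background for these 2 counts, and the share by gene over all genes was not taken. The higher calls of DSG2 and OCLN depend on the scaling. The genes called lower with the motif are TJP1, TJP3, DSP and JUP, and those called higher are DSG2, OCLN and CLDN14, the last at another start than the one shown. CLDN7 holds the motif 4 times in 1 window. The grainyhead motif AACNGGTT stood in 1 of the 58 windows (1.49% of all windows) and the AP-1 motif TGANTCA in 5 (6.57%). A match is a description of letters, and binding was not measured.

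**Figure D4:**
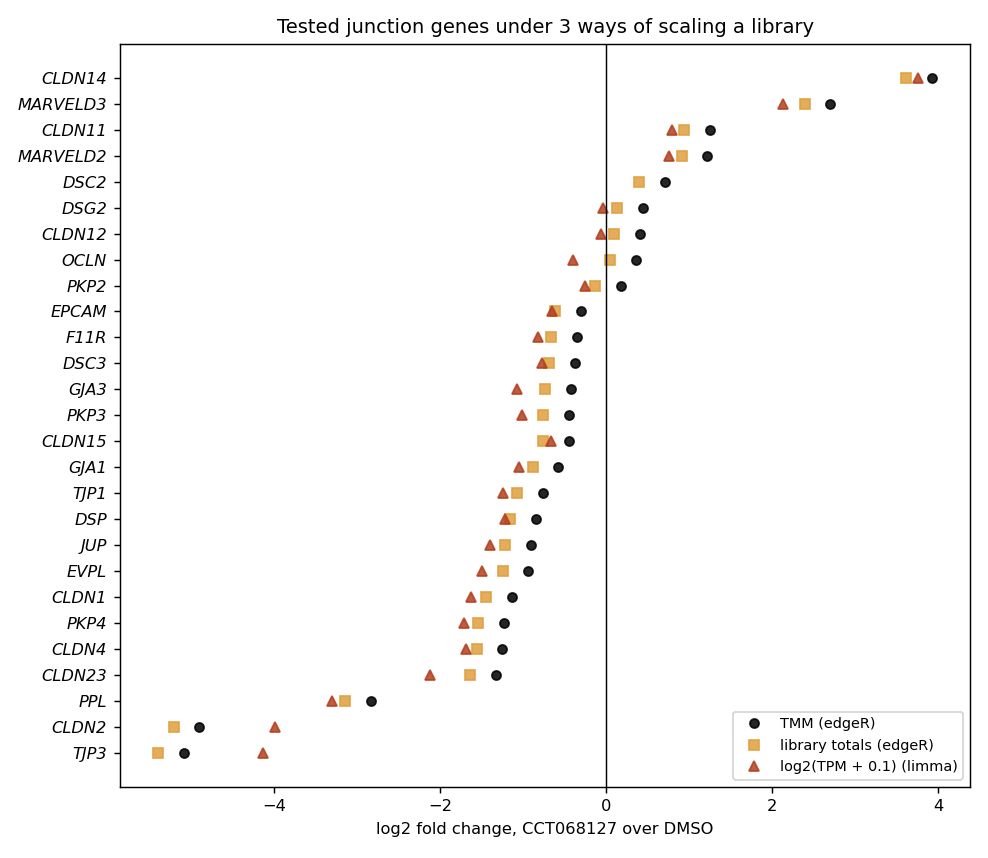
The log2 fold change (CCT068127 over DMSO, x axis) of 27 tested junction genes under 3 ways of scaling a library: TMM in edgeR (black circles), library totals in edgeR (yellow squares) and log2(TPM + 0.1) in limma (red triangles; DSC2 is absent because it did not pass the filter of 1 TPM). The genes drawn that were called lower stay left of 0 under all 3. DSG2 and OCLN, called higher with TMM, have triangles left of 0. The median of all genes was -0.050 with TMM, -0.36 with library totals and -0.53 on log2(TPM + 0.1). Both alternatives thus shift genes to the left and can hardly carry a lower call across 0.

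Of the 21 called genes 16 kept direction and call under all 17 other settings, among them CLDN1, CLDN2, CLDN11, CLDN14, F11R, MARVELD2, MARVELD3, TJP1, TJP3, JUP, PKP4, DSP, EVPL, PPL and GJA1. CLDN2, TJP3, CLDN14 and MARVELD3 passed the low-count filter only through the group where they are high, so their calls depend in part on it. Library totals and the filtered TPM scales lower the median of all genes, so they hardly challenge the lower calls. With the 2 deep DMSO libraries thinned to the depth of the third, 26 of the 28 genes had the same result. With DMSO replicate 3 as the sole control, all 28 fold changes had the same sign.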

How the data were processed

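RNA-seq of T-24 cells gave 1 count table and 1 TPM table. The authors deposited an estimated count for each gene symbol and library, as a whole number, and a TPM value beside it; RSEM, Bowtie and hg38 are named without versions in the submitters' processing notes. The annotation and strandedness are not given in the sources used here. Libraries were made after poly(A) selection, per the labels' protocols. Groups came from the sample titles.

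Counts were tested in R 4.3.3 with edgeR 4.0.16: filterByExpr (minimum count 10 in 3 libraries, or 1.74 CPM in a library of median size), TMM, robust quasi-likelihood F test with treatment as the term, two-sided, Benjamini-Hochberg adjustment over all 13597 genes, calls at an adjusted p under 0.05. SE was approximated from F. CPM uses TMM-scaled totals. A count of 3 equals 0.54, 1.53 and 0.644 CPM in the CCT068127 libraries and 0.00809, 0.0073 and 0.504 CPM in the DMSO libraries. Pooled ratios have exact 95% counting intervals, which cover counting error only. The p-values measure the spread between these libraries.

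Alternatives were DESeq2 size factors, upper-quartile and library-total scaling, no filter, the replicate number as a block, DESeq2 1.42.0, limma-voom, limma-trend 3.58.1 on log2(TPM + 1) and log2(TPM + 0.1) keeping genes with 1 TPM in 3 libraries, log2(TPM + 1) unfiltered, thinned deep libraries, DMSO replicate 3 as the sole control, and each library left out. TPM fold changes include the pseudocount and understate changes of low genes. The pipeline was tested on simulated data.

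The genes and lists were chosen with earlier results of these data known. Tested genes are named, except a few left out of the text that are still included in counts and sums; values per library are given for called genes of at least 2-fold and for genes of at least 20 TPM. Lists name up to 3 called genes in the commoner direction and 1 in the other, and all called transcription factors. Other genes printed were chosen after their values were seen. PALS1 is listed as MPP5 in the files.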

Additional observations from a re-analysis of the deposited data

How the results depend on the processing

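The counts of tight junction genes called higher (5) and lower (8) and of desmosome genes called lower (6) moved by no more than 1.5 times under any setting run. The count of desmosome genes called higher (1) was 0 with library totals and on log2(TPM + 1) and log2(TPM + 0.1) with a filter, 2 without a filter and in DESeq2, and 1 to 3 when a library was left out (3 without CCT068127 replicate 1 or without DMSO replicate 1, 2 without DMSO replicate 2 or 3). The count of gap junction genes called higher (0) was 3 without a filter and in DESeq2 and 1 on log2(TPM + 1) without a filter. The count of gap junction genes called lower (1) was 2 with library totals, in DESeq2 and on both filtered TPM scales, and 3 without a filter and on log2(TPM + 1) without a filter. The settings without a filter test more genes, among them DSG3, GJB5 and GJB7. OCLN was reversed at -0.33 on log2(TPM + 1), filtered or not, and at -0.40 on log2(TPM + 0.1), and lost its call in 12 further settings. DSG2 was reversed at -0.041 on log2(TPM + 1), filtered or not, and at -0.042 on log2(TPM + 0.1), and had 0.20 without a filter (adjusted p 0.32). Over all genes the calls were 4333 higher and 4460 lower with TMM, 3006 and 6567 with library totals and 2474 and 7472 on log2(TPM + 1) with a filter; the cause of these shifts was not tested. The share of CLDN1 in the claudin sum, an alternative chosen after seeing the data, differed by -36.7 percentage points between CCT068127 and DMSO in TPM and in CPM, and by -39.0 to -35.0 when a library was left out.

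Same-numbered libraries of the 2 groups did not deviate together (r 0.00384, 0.00486 and 0.00616 across genes), so the replicate numbers are not taken as pairs. With the replicate number as a block, 27 of 28 genes had the same result, OCLN lost its call (4 tight junction genes higher), and calls over all genes were 4107 higher and 4190 lower. No pair of libraries of a group agreed within counting noise (chi-square per degree of freedom 1.97 to 9.23). Depth limits the low genes: the CCT068127 libraries hold 1 count each of CLDN2 and TJP3 in all.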
